A study of Mus musculus with 29 samples.

Results

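The genes described here are NF-kB targets and secreted factors of the senescence-associated secretory phenotype (SASP), the mix of cytokines, growth factors and proteases released by senescent cells. They were chosen by name, from a list of TNF and NF-kB induced genes, cytokines and SASP proteases that leaves out chemokines and collagens. No measured value entered that rule, but earlier results of these data were known when the list was made. The list holds 37 names. Of these, 36 are genes and all 36 were found among the 55421 genes of the count table, while the remaining name, Gclm-placeholder, is not a gene name and matched nothing. The members were grouped by role into 7 cytokines and growth factors, 6 receptors and signalling adaptors, 4 NF-kB subunits, 6 members of the IkB family and feedback inhibitors, 5 survival and stress genes, 4 adhesion and activation genes, and 4 secreted proteases or prostaglandin synthesis genes.

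NF-kB is a family of dimeric transcription factors that IkB proteins hold in the cytoplasm. Signals from TNF, interleukin-1 and Toll-like receptors lead to degradation of IkB, and the freed dimers switch on cytokines, adhesion molecules and survival genes, along with IkB proteins and ubiquitin-editing enzymes that end the response. In senescent cells NF-kB is the main driver of SASP transcription, and in liver much of the interleukin-1 and TNF is made by Kupffer cells, the resident macrophages, and by recruited myeloid cells.

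Bulk RNA-seq was done on poly(A) RNA of whole liver from female and male mice in 6 groups, to ask how these genes differ with age and with HDM201, a small molecule that blocks the binding of MDM2 to p53. The old mice were C57BL/6J, 20 months of age in females and 24 months in males by the sample labels, and received either vehicle, a phosphate-buffered methylcellulose suspension, or HDM201 at 10 mg/kg by oral gavage each day for 14 days. The young mice were C57BL6/N, 5 months of age by the labels, and received vehicle, so age and substrain cannot be told apart. Read counts covered 5 young vehicle, 4 old vehicle and 5 old HDM201 females, and 4 young vehicle, 4 old vehicle and 5 old HDM201 males, with 16485900 to 23570458 reads on genes per mouse.

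Old vehicle male 1 and young vehicle male 5 had FPKM values but no counts, so that every count test in males leaves them out. Statements on which mice overlap or lie above others cover only the mice with counts. For several members those on males do not extend to young vehicle male 5, whose FPKM values are given at the end. The labels number the mice separately but do not give litters or cages. Hepatocyte markers matched the labelled tissue, with a summed level of 77876 to 160759 CPM (read counts scaled to a common library size, after TMM normalisation) per mouse for 6 markers led by Alb and Apoa1. All 5 pancreas markers, Prss1 and Cela3b among them, were at 0 in every mouse with counts. In whole liver, fewer cells of a type and less RNA per cell cannot be told apart.

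Several members carry the kB motif, the degenerate 10-letter DNA element bound by NF-kB dimers, just before their start. RefSeq promoter sequences of GRCm38.p6, the assembly that mm10 names, were given for 27 of the 36 genes. In the 250 bases before the start, 10 of these 27 genes (37%) held at least 1 match on either strand, against 4.46% of all 27025 genes in the promoter table. These were Csf1, Il6, Tlr2, Nfkb2, Rel, Nfkbia, Nfkbie, Tnfaip3, Tnip1 and Ier3. No entry was given for Nfkb1, Relb, Nfkbiz, Cd40, Cd83, Ripk2, Tnfaip8, Vcam1 and Plau. The windows of 30 bases shown next are those of 6 members that differed with age in at least 1 sex, followed by Nfkbia and Il6, which did not pass or could not be tested. Each is written 5′ to 3′ on the strand of its gene, and capitals mark the letters of the motif, with overlapping matches on both strands merged.
Csf1, chr3:107760604-107760633, minus strand: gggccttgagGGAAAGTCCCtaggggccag
Tlr2, chr3:83841761-83841790, minus strand: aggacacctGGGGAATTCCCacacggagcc
Nfkb2, chr19:46304689-46304718, plus strand: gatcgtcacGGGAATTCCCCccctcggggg
Nfkbie, chr17:45555584-45555613, plus strand: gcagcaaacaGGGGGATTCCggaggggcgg
Tnip1, chr11:54962978-54963007, minus strand: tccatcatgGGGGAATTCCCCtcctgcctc
Ier3, chr17:35821611-35821640, plus strand: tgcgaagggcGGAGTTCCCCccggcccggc
Nfkbia, chr12:55492657-55492686, minus strand: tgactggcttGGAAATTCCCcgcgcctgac
Il6, chr5:30013060-30013089, plus strand: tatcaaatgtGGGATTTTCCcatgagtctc

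The Nfkbia motif lies 29 to 20 bases before the RefSeq start and the Il6 motif 44 to 35 bases before it. Those of Nfkb2, Tnip1 and Nfkbie lie 39 to 29, 58 to 47 and 106 to 97 bases before it, and those of Ier3, Csf1 and Tlr2 92 to 83, 154 to 145 and 173 to 163 bases before it. Nfkb2 holds 3 further matches in the windows of its different starts and Tnfaip3 holds 2 in all. A match describes these letters only, and binding was not measured.

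Per length, the members spanned a wide range of levels. Nfkbia, which encodes IkBα, the main cytoplasmic inhibitor of NF-kB, had the highest level, with a mean of 32.7 CPM per kb of exons over the 27 mice (lowest mouse 21.3, highest 46.5). It was followed on the same scale by Bcl3, a nuclear IkB protein, at 14.4 CPM per kb, Il18, a cytokine matured by inflammasomes, at 11.7, and Tnfrsf1b, the TNF receptor 2, at 10.2. Neighbours in this order overlapped, since the highest Bcl3 mouse (22.2) lay above the lowest Nfkbia mouse and the ranges of Bcl3, Il18 and Tnfrsf1b also ran into each other. The lowest levels were those of Ptgs2, which encodes the inducible prostaglandin synthase COX-2, at 0.0169 CPM per kb and of Il6, the classic SASP cytokine, at 0.00826.

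**Figure D1:**
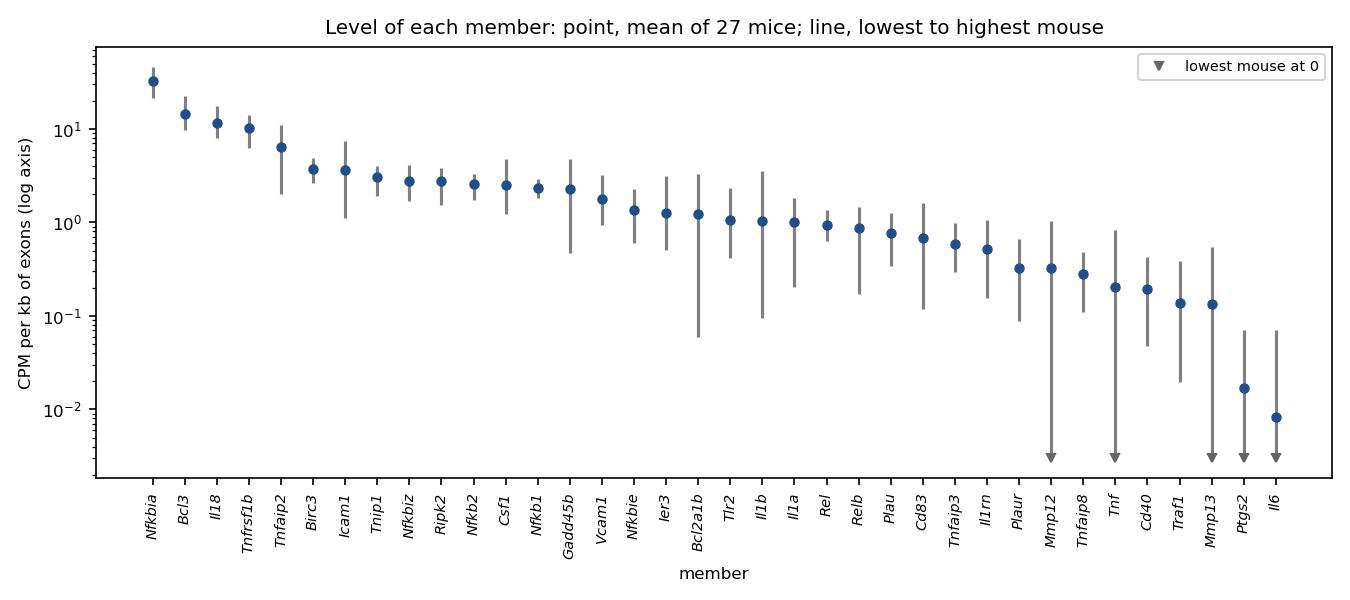
Mean level of each of the 36 members over the 27 mice with counts, in CPM per kb of exons on a log axis, with a line from the lowest to the highest mouse. Nfkbia leads at 32.7 CPM per kb, and triangles mark members whose lowest mouse had no reads (Mmp12, Tnf, Mmp13, Ptgs2 and Il6).

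Between old and young vehicle-treated females most of the members differed, almost all of them higher in old liver. Of the 31 members with enough reads to test, 19 were higher and 2 lower in old females, against a background of 16.8% higher and 15% lower among the 14233 genes tested. The median log2 fold change of the 31 was 0.61, against 0.0094 for all genes. A gene is called here at a Benjamini-Hochberg FDR under 0.05 over all genes tested with edgeR's quasi-likelihood test. Of the members called higher, Bcl2a1b had 1 to 9 reads in the young females and 26 to 32 in the old vehicle females. It entered only through the old mice, so its call is not support for the count. The 2 members lower in old females were Il18 and Ripk2. Of 8 macrophage and Kupffer cell markers 7 were higher in the same comparison, and their part in the members' rise was not tested. Tnf, Il6, Mmp12, Mmp13 and Ptgs2 did not pass the filter on low counts in this comparison, and members that did not pass the test were Il1a, Il1rn, Tnfrsf1b, Cd40, Rel, Nfkbia, Tnfaip3, Birc3, Vcam1 and Plau.

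In males the same comparison called 9 of 31 members tested, all higher in old liver, where 2.76% of all 13755 genes were called higher and 0.931% lower. These were Csf1, Tlr2, Tnfrsf1b, Relb, Birc3, Bcl2a1b, Ier3, Cd83 and Mmp12. Bcl2a1b and Mmp12 had fewer than 10 reads in every young male tested and entered only through the old mice, so their calls are not support for the count. The median log2 fold change of the 31 members was 0.81, against -0.015 for all genes, and 29 of the 31 lay above 0. The count rested on single mice and on the tool. It fell to 1 without young vehicle male 4, to 3 without young vehicle male 3 or old vehicle male 4, to 4 without young vehicle male 2 and to 5 without young vehicle male 1 or old vehicle male 2 or 3, and it was 17 with DESeq2, 14 without the count filter, 19 with all 6 groups in one fit, 0 with the replicate block, and 0, 1, 0 and 2 in the limma fits on FPKM. An interaction term of sex and age tested whether females and males differed in that change. It called 1 of 32 members, Tnfrsf1b, where 3.92% of all 14721 genes were called, so that the count is near the share. Old females were 20 and old males 24 months of age, so that sex and the age reached cannot be told apart in that term.

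With HDM201 few members were called in old females. Of 33 members tested, 2 were lower than with vehicle, Il1b and Cd83, and none was higher, where 2.9% of all 14445 genes were called lower and 2.35% higher. In all 10 members had an unadjusted p under 0.05, and DESeq2 called 2 members lower and 1, Ripk2, higher. The median log2 fold change of the 33 was -0.18, against 0.0010 for all genes, and 22 of them lay below 0. The Il1b and Cd83 calls were not stable. No member was called when old HDM201 female 3 or 4, or old vehicle female 2 or 4, was dropped. Neither Il1b nor Cd83 was called without old HDM201 female 1 or 2 either, where a single other member was called, and without old HDM201 female 5 the call left was that of Cd83. In the same comparison 7 of 8 macrophage and Kupffer cell markers were lower, and their part in the fall of Il1b and Cd83 was not tested.

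In old males no member was called with HDM201 by edgeR, where 0.00709% of all 14109 genes were. Of the 33 members tested, 3 had an unadjusted p under 0.05 (Tnf, Nfkb1 and Tnfaip2, each with a fold change above 0), and DESeq2 called none. The median log2 fold change of the 33 was 0.13, against 0.014 for all genes. The interaction of sex and treatment called 0 of 34 members with edgeR, where 0.107% of all 14974 genes were called. Of the 34, 8 had an unadjusted p under 0.05. DESeq2 called 1, Nfkb1, and 26 of the 34 differences lay below 0, which means a lower fold change with HDM201 in females than in males. Without old vehicle female 3 or old HDM201 male 2, edgeR called 1.

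Against young vehicle mice, the HDM201-treated old mice still differed. In females 14 members were higher and 1, Tnfrsf1b, lower of the 31 tested, where 14.2% of all 13995 genes were called higher and 12.6% lower, and the median log2 fold change of the members was 0.39. Beside these, 5 of 6 B and plasma cell, 5 of 5 cholangiocyte and 2 of 2 neutrophil markers tested were higher, and 1 of 8 macrophage markers was lower. In males 24 of 33 members were higher and none lower, where 11.6% of all 14024 genes were called higher and 7.56% lower, and the median was 0.99. That male count was 25 with DESeq2, 27 with all 6 groups in one fit and 14 with the replicate block. It was 19 in the limma fit on mice with counts and 7, 7 and 4 in the limma fits on FPKM of all mice. Most male calls against young mice given below were lost in each of the latter fits. The markers higher in HDM201-treated than in young males were 5 of 5 T and NK cell, 5 of 6 B and plasma cell, 3 of 8 macrophage, 4 of 5 monocyte, 2 of 2 neutrophil, 6 of 6 stellate and 4 of 5 cholangiocyte markers tested. The part of these markers in the members' values was not tested. Young male means were 0.216 to 0.413 CPM for the 5 T and NK cell markers, 0.236 and 0.454 for S100a8 and S100a9, and 0.314 and 0.401 for Ly6c2 and Itgam. In young females S100a8 and S100a9 were at 0.192 and 0.333 CPM. Markers this low could pass the filter only with the old mice, so their calls are not support for these marker counts. Mmp12 in both sexes, and Tnf, Bcl2a1b and Cd40 in males, had fewer than 10 reads in every young mouse. They entered these tests only through the old mice, so their calls are not support for the counts. All these comparisons share mice. The old vehicle groups enter the comparisons with age and with HDM201, and the young vehicle groups enter the comparisons with old vehicle and with old HDM201, so their values are set side by side and are not independent.

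**Figure D2:**
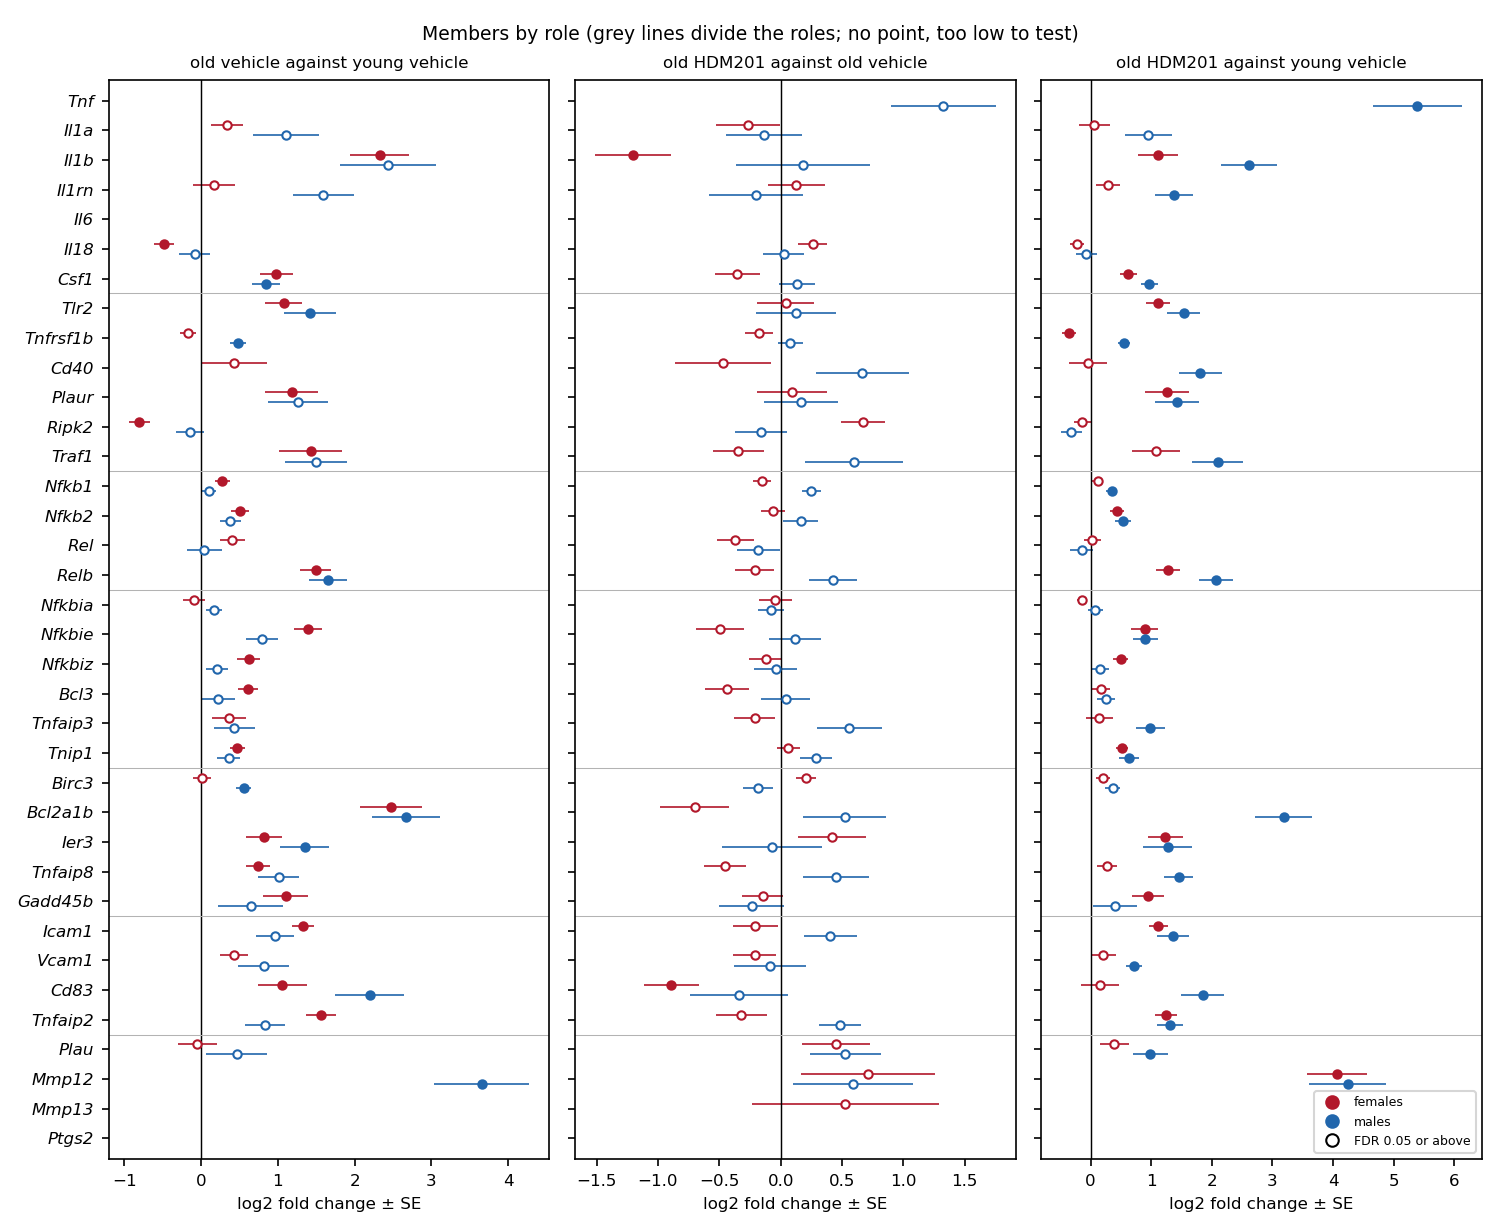
Log2 fold change with its SE (horizontal axis) of each member, ordered by role, in females (red) and males (blue) for the 3 comparisons of groups, with filled points where the edgeR FDR was under 0.05. With age most points lie to the right of 0 in both sexes, and with HDM201 only Il1b and Cd83 in females are filled.

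Of the 5 cytokines and growth factors tested with age in females, 2 were higher and 1 lower, and in males 1 of 5 was higher. HDM201-treated mice differed from young ones at 2 of 5 in females and 4 of 6 in males, all higher. For this role and those that follow, the share of all genes called with age was 16.8% higher and 15% lower in females. It was 2.76% and 0.931% in males. For HDM201-treated against young mice it was 14.2% and 12.6% in females and 11.6% and 7.56% in males. In females 1 call lower of 5 or 6 genes is close to these shares. Il1b, which encodes interleukin-1β, was higher in old vehicle females, and HDM201 went with a lower level. Its CPM was 1.51, 0.410, 0.780, 1.15 and 0.490 in the 5 young females, 2.11, 6.77, 3.48 and 4.36 in the 4 old vehicle females and 1.57, 1.37, 1.58, 2.76 and 1.93 in the 5 old HDM201 females. In males it was 0.181, 0.457, 0.600 and 0.407 in the 4 young, 1.04, 2.96, 4.42 and 0.637 in the 4 old vehicle and 2.23, 1.18, 2.77, 1.81 and 4.73 in the 5 old HDM201 mice. All old vehicle females lay above all young females, the HDM201-treated females lay between them with overlap on both sides, and every old male of either treatment lay above every young male. The rise with age in females was called (log2 fold change 2.33, SE 0.39, edgeR FDR 9.62e-04). The fall with HDM201 in females passed narrowly (log2 fold change -1.20, SE 0.31, edgeR FDR 0.0469). It gave edgeR FDR 0.0184 to 0.155 as single mice were dropped and was kept only without old vehicle female 1 or 3. In males the difference with age was 2.44 (SE 0.63, edgeR FDR 0.0603) and that with HDM201 0.18 (SE 0.55, edgeR FDR 0.913). The sexes were not shown to differ in the change with HDM201 (log2 fold change -1.38, SE 0.66, edgeR FDR 0.274 for the interaction). In females given HDM201 it still exceeded the young level (log2 fold change 1.12, SE 0.33, edgeR FDR 0.0240), a call lost without old HDM201 female 4 or young vehicle female 2 or 5 (edgeR FDR 0.0108 to 0.0699 as single mice were dropped), and in males (log2 fold change 2.61, SE 0.46, edgeR FDR 0.00418).

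Csf1 encodes macrophage colony-stimulating factor, the growth factor of macrophages. Its CPM in females was 6.81, 9.94, 9.99, 8.28 and 12.9 in young, 15.1, 25.4, 12.1 and 21.9 in old vehicle and 14.8, 13.9, 16.7, 15.9 and 12.9 in old HDM201 mice. In males it was 9.67, 6.80, 6.43 and 7.65 in young, 12.2, 14.5, 17.1 and 10.6 in old vehicle and 14.5, 13.8, 13.8, 14.2 and 17.8 in old HDM201 mice. Old and young vehicle females overlapped at 1 mouse each, and in males all old mice with counts lay above all young ones with counts. It was higher with age in females (log2 fold change 0.98, SE 0.22, edgeR FDR 0.00504) and in males (log2 fold change 0.84, SE 0.18, edgeR FDR 0.0365, kept only without old vehicle male 5 or young vehicle male 1, with an edgeR FDR 0.0239 to 0.102 as single mice were dropped). With HDM201 the difference was -0.35 (SE 0.18, edgeR FDR 0.283) in females and 0.13 (SE 0.14, edgeR FDR 0.734) in males. Old HDM201 mice were higher than young ones in both sexes, by 0.62 (SE 0.14, edgeR FDR 0.00654) in females and 0.97 (SE 0.14, edgeR FDR 0.00229) in males.

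Tnf, a cytokine that both activates NF-kB and is induced by it, was close to the limit of detection. Its reads numbered 5, 0, 1, 1 and 0 in young, 3, 7, 7 and 10 in old vehicle and 10, 8, 6, 9 and 1 in old HDM201 females. In males they numbered 1, 0, 0 and 0 in young, 4, 8, 8 and 4 in old vehicle and 14, 8, 17, 12 and 25 in old HDM201 mice. The 5 HDM201-treated males held the highest counts as a group, and every old male had more reads than every young male. Tnf passed the filter only in comparisons that include the HDM201-treated males. Its difference from old vehicle males was 1.33 (SE 0.43, edgeR FDR 0.294). Against young males it is 1 of the 24 members called higher, but it entered that test only through its reads in the HDM201-treated group. The young males held 1 Tnf read in all, against 76 reads in the 5 HDM201-treated males, a ratio of 62.3 with an exact (Clopper-Pearson) 95% interval of 10.8 to 2491 that covers counting error only. The fitted fold change depends on how the low count is stabilised and is not given, and the gene failed the filter when 1 of the old HDM201 males 1, 3, 4 and 5 was left out.

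Il6 could not be tested in any comparison. In 21 of the 27 mice it had no read, and the most in 1 mouse was 3 reads, in old vehicle female 4 and in old vehicle male 4. No read fell on it in the 5 HDM201-treated females, where 3 reads over the group remain possible. Among the other interleukin-1 genes, Il1a, which encodes interleukin-1α, differed by 0.34 (SE 0.21, edgeR FDR 0.242) with age in females and by 1.10 (SE 0.43, edgeR FDR 0.170) in males. Il1rn, the antagonist of the interleukin-1 receptor, differed by 0.17 (SE 0.28, edgeR FDR 0.679) in females and 1.59 (SE 0.40, edgeR FDR 0.0549) in males, and was higher in HDM201-treated than in young males (log2 fold change 1.38, SE 0.31, edgeR FDR 0.0120). That last call was lost with the replicate block and in all limma fits on FPKM. Il18 was lower with age in females, averaging 14.5 ± 2.19 (SD, n = 5) CPM among young and 10.3 ± 1.32 (SD, n = 4) among old vehicle mice without overlap (log2 fold change -0.48, SE 0.13, edgeR FDR 0.0134), and differed by -0.08 (SE 0.21, edgeR FDR 0.847) in males.

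**Figure D3:**
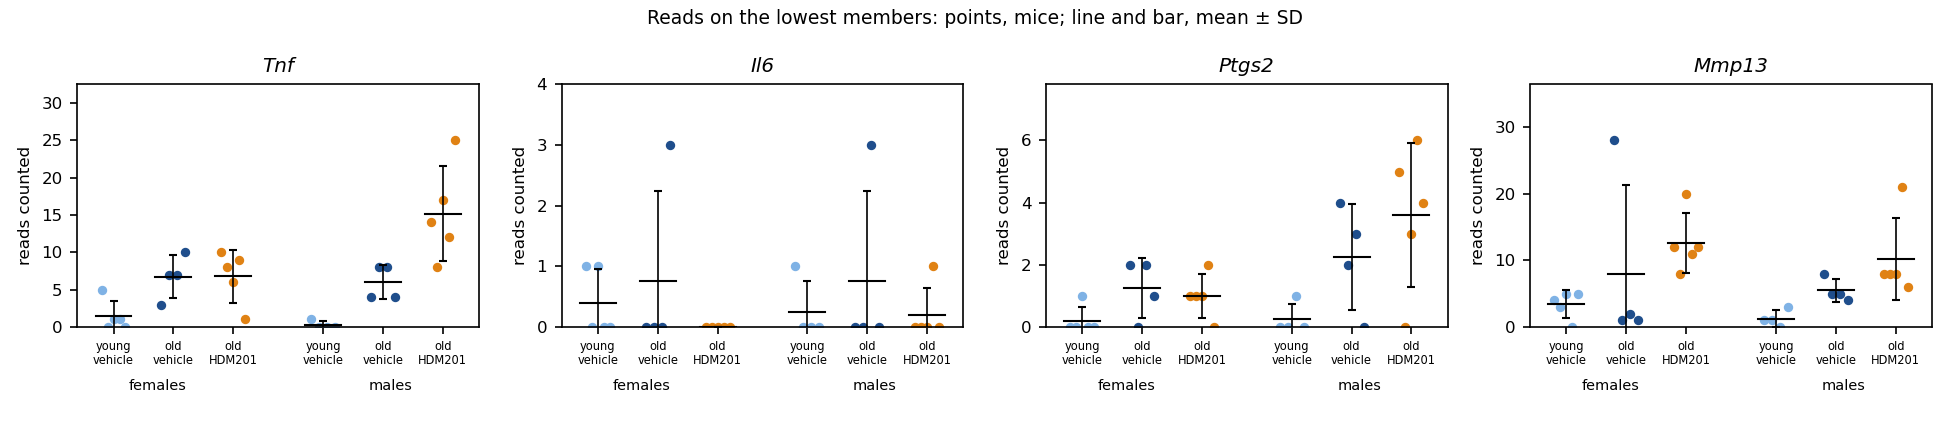
Reads counted per mouse (points) on the 4 members with the fewest reads, Tnf, Il6, Ptgs2 and Mmp13, by group in females and males, with the mean and SD as a line and bar (bars that would pass below 0 end at the axis). Tnf reaches 25 reads in 1 HDM201-treated male, and Il6 does not exceed 3 reads in any mouse.

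Of the 6 receptors and adaptors tested, 3 were higher and 1 lower with age in females, and 2 of 5 were higher in males. HDM201-treated mice differed from young ones at 2 higher and 1 lower of 6 in females and at 5 higher of 6 in males. Tlr2, the Toll-like receptor for bacterial lipoproteins, was higher with age in both sexes. Its CPM was 2.21, 1.90, 1.35, 1.38 and 1.77 in young, 2.27, 4.41, 3.10 and 4.41 in old vehicle and 5.32, 2.84, 3.74, 3.43 and 3.29 in old HDM201 females. In males it was 1.27, 2.06, 1.58 and 1.27 in young, 3.60, 3.01, 7.06 and 2.71 in old vehicle and 4.40, 2.84, 3.52, 4.85 and 6.55 in old HDM201 mice. Among mice with counts, every old mouse, of either treatment, lay above every young mouse in each sex. It rose with age in females (log2 fold change 1.07, SE 0.24, edgeR FDR 0.00474) and narrowly in males (log2 fold change 1.42, SE 0.34, edgeR FDR 0.0496, kept only without old vehicle male 5, with an edgeR FDR 0.0363 to 0.121 as single mice were dropped). HDM201 against vehicle gave 0.04 (SE 0.23, edgeR FDR 0.936) in females and 0.13 (SE 0.32, edgeR FDR 0.902) in males.

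Tnfrsf1b was the 1 member called for a difference between the sexes in its change with age, a call lost in 5 of 17 fits that leave out a mouse and in all 4 limma fits on FPKM. That count of 1 is near the share of all genes called (3.92%). The old mice were 20 months of age in females and 24 in males, so sex and the age reached cannot be told apart in that call. The gene had a CPM of 40.6, 53.2, 54.1, 42.9 and 48.1 in young, 39.5, 38.7, 48.8 and 39.8 in old vehicle and 30.8, 32.2, 44.4, 38.6 and 40.7 in old HDM201 females. The male values were 23.7, 29.1, 28.1 and 28.8 in young, 40.3, 39.1, 40.5 and 31.8 in old vehicle and 36.5, 39.6, 48.0, 36.0 and 39.3 in old HDM201 mice. Every old male with counts lay above every young male with counts, whereas all young females lay above 3 of the 4 old vehicle ones. The change with age was 0.48 (SE 0.11, edgeR FDR 0.0426) in males and -0.17 (SE 0.10, edgeR FDR 0.219) in females, and the interaction was -0.64 (SE 0.15, edgeR FDR 0.0318). That interaction was lost without old vehicle female 1, 2 or 4, old vehicle male 4 or young vehicle female 2 (edgeR FDR 0.0187 to 0.0686 as single mice were dropped), and the count of members it called went to 2 without young vehicle female 3 and to 3 without old vehicle male 2. The call in males was kept only without old vehicle male 5 (edgeR FDR 0.0209 to 0.133 as single mice were dropped). Compared with young mice, HDM201-treated females were lower (log2 fold change -0.36, SE 0.11, edgeR FDR 0.0306), a call lost without old HDM201 female 1, 2 or 4 or young vehicle female 2, 3 or 5 (edgeR FDR 0.0206 to 0.0696 as single mice were dropped), and HDM201-treated males higher (log2 fold change 0.55, SE 0.10, edgeR FDR 0.00496).

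Ripk2, the kinase that carries signals of the NOD receptors to NF-kB, was lower in old vehicle females. Its CPM was 10.0, 8.41, 8.69, 7.64 and 8.63 in young, 4.58, 4.32, 6.36 and 4.36 in old vehicle and 6.78, 6.34, 9.94, 6.68 and 9.72 in old HDM201 females. In males the levels were 10.5, 9.60, 8.61 and 8.24 in young, 5.73, 8.87, 10.9 and 7.64 in old vehicle and 5.84, 5.51, 7.56, 8.32 and 9.46 in old HDM201 mice. Young females all exceeded the 4 old vehicle ones, and 4 of the 5 HDM201-treated females lay above all old vehicle ones. The fall with age in females was called (log2 fold change -0.80, SE 0.14, edgeR FDR 0.00136). The difference with HDM201 in females missed the threshold with edgeR (log2 fold change 0.67, SE 0.18, edgeR FDR 0.0509) and passed it with DESeq2 (FDR 0.00963). The corresponding values in males were -0.14 (SE 0.19, edgeR FDR 0.701) with age and -0.16 (SE 0.21, edgeR FDR 0.790) with HDM201.

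Plaur, the urokinase receptor, rose with age in females (log2 fold change 1.18, SE 0.34, edgeR FDR 0.0202), a call lost without old vehicle female 2 (edgeR FDR 0.00278 to 0.0612 as single mice were dropped), and differed by 1.26 (SE 0.39, edgeR FDR 0.0955) in males. Traf1, an adaptor of TNF receptors, rose with age in females (log2 fold change 1.43, SE 0.41, edgeR FDR 0.0187) and differed by 1.50 (SE 0.40, edgeR FDR 0.0669) in males. Cd40, a costimulatory receptor of the TNF receptor family, did not pass the test with age in females (log2 fold change 0.43, SE 0.43, edgeR FDR 0.472) and was too low to test in males. In HDM201-treated males, compared with young males, Plaur (log2 fold change 1.42, SE 0.37, edgeR FDR 0.0208), Traf1 (log2 fold change 2.10, SE 0.42, edgeR FDR 0.00747) and Cd40 (log2 fold change 1.81, SE 0.36, edgeR FDR 0.00652) were all higher. The Plaur call was lost without young vehicle male 2 or 3 (edgeR FDR 0.0208 to 0.0594 as single mice were dropped). In HDM201-treated against young females Plaur was also higher (log2 fold change 1.27, SE 0.36, edgeR FDR 0.0208), a call lost without young vehicle female 1 (edgeR FDR 0.00573 to 0.0516 as single mice were dropped).

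Of the 4 NF-kB subunits, 3 were higher with age in females and 1 in males, and HDM201-treated mice were higher than young ones at 2 in females and 3 in males. Relb, a partner of p52 in the alternative pathway, had the largest fold changes of them with age. Its CPM was 1.39, 1.59, 2.03, 2.47 and 1.23 in young, 4.85, 5.70, 4.04 and 4.64 in old vehicle and 4.75, 3.06, 4.49, 4.59 and 4.13 in old HDM201 females. In males Relb stood at 0.665, 1.54, 1.31 and 1.09 in young, 3.44, 3.54, 3.67 and 3.77 in old vehicle and 5.06, 2.89, 5.54, 5.60 and 5.01 in old HDM201 mice. Among mice with counts, all old mice, with or without HDM201, lay above all young mice in both sexes. The lowest HDM201-treated mice were old HDM201 female 2 and old HDM201 male 2. The rise with age was called in females (log2 fold change 1.49, SE 0.21, edgeR FDR 3.27e-04) and in males (log2 fold change 1.65, SE 0.25, edgeR FDR 0.00977), and neither call was lost when any 1 mouse was left out. The call in males was lost with the replicate block and in the 3 limma fits on FPKM of all mice. With HDM201 Relb differed by -0.21 (SE 0.16, edgeR FDR 0.462) in females and 0.43 (SE 0.20, edgeR FDR 0.420) in males, and the interaction was -0.63 (SE 0.25, edgeR FDR 0.181). Compared with young mice, HDM201-treated mice were higher by 1.27 (SE 0.20, edgeR FDR 6.25e-04) in females and 2.07 (SE 0.28, edgeR FDR 0.00162) in males.

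Nfkb2 encodes p100, the precursor of p52 that also restrains RelB. Its female values were 8.95, 12.0, 8.43, 10.3 and 9.12 CPM in young, 12.4, 13.4, 15.1 and 13.9 in old vehicle and 15.1, 12.2, 14.3, 13.1 and 11.6 in old HDM201 mice. Its male values were 9.43, 10.0, 9.16 and 7.87 CPM in young, 12.8, 11.4, 13.2 and 9.66 in old vehicle and 14.4, 10.4, 11.4, 15.04 and 14.2 in old HDM201 mice. All old vehicle females lay above all young females, and old vehicle and young males overlapped. Nfkb2 rose with age in females (log2 fold change 0.51, SE 0.12, edgeR FDR 0.00611) and differed by 0.38 (SE 0.13, edgeR FDR 0.127) in males. HDM201-treated mice were higher than young ones in females (log2 fold change 0.44, SE 0.11, edgeR FDR 0.0126) and in males (log2 fold change 0.54, SE 0.14, edgeR FDR 0.0205), where the call was lost without young vehicle male 4 (edgeR FDR 0.0101 to 0.0629 as single mice were dropped).

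Nfkb1, which encodes p105 and its product p50, had smaller fold changes. The values in females were 22.1, 26.4, 30.9, 26.2 and 27.9 CPM in young, 29.5, 33.2, 29.8 and 34.9 in old vehicle and 28.9, 31.2, 27.7, 29.6 and 27.9 in old HDM201 mice. The values in males were 22.3, 26.6, 23.0 and 23.8 CPM in young, 26.6, 26.7, 25.4 and 23.2 in old vehicle and 30.8, 26.8, 33.1, 29.5 and 30.7 in old HDM201 mice. All 5 HDM201-treated males lay above all 4 old vehicle males, while in females the HDM201 and vehicle values overlapped. The difference with age in females passed narrowly (log2 fold change 0.28, SE 0.098, edgeR FDR 0.0463), was kept only without old vehicle female 3 or young vehicle female 3 (edgeR FDR 0.0213 to 0.139 as single mice were dropped), and did not pass with DESeq2 (FDR 0.0647). With HDM201 it differed by -0.15 (SE 0.073, edgeR FDR 0.236) in females and 0.25 (SE 0.081, edgeR FDR 0.294) in males. Its interaction of sex and treatment was -0.40 (SE 0.10, edgeR FDR 0.0704) with edgeR and passed the threshold with DESeq2 (FDR 0.0231). HDM201-treated males were higher than young males (log2 fold change 0.35, SE 0.086, edgeR FDR 0.0177). Rel, which encodes c-Rel, did not pass in any comparison, with 0.41 (SE 0.17, edgeR FDR 0.0790) with age in females and -0.37 (SE 0.15, edgeR FDR 0.173) with HDM201.

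The IkB family and feedback inhibitors are themselves induced by NF-kB. Of the 6 tested, 4 were higher with age in females (Nfkbie, Nfkbiz, Bcl3 and Tnip1) and none was called in males by edgeR, where 2 had an unadjusted p under 0.05 and DESeq2 called 1. In HDM201-treated against young mice 3 of 6 were higher in each sex. Nfkbie encodes IkBε. Its CPM was 1.83, 2.00, 2.50, 3.33 and 2.01 in young, 5.53, 5.75, 5.92 and 6.94 in old vehicle and 5.95, 2.57, 3.95, 4.99 and 4.23 in old HDM201 females. In males the CPM was 2.36, 3.31, 2.45 and 2.40 in young, 3.60, 5.10, 5.57 and 3.82 in old vehicle and 5.90, 3.32, 4.90, 4.43 and 5.83 in old HDM201 mice. Old and young vehicle mice with counts did not overlap in either sex, and the HDM201-treated females ranged from within the young values to within the old vehicle ones. Nfkbie rose with age in females (log2 fold change 1.39, SE 0.18, edgeR FDR 2.03e-04), and in males the difference was 0.79 (SE 0.21, edgeR FDR 0.0658). With HDM201 it differed by -0.49 (SE 0.20, edgeR FDR 0.162) in females and 0.12 (SE 0.21, edgeR FDR 0.850) in males. HDM201-treated mice remained higher than young ones in females (log2 fold change 0.89, SE 0.23, edgeR FDR 0.0111) and in males (log2 fold change 0.90, SE 0.21, edgeR FDR 0.0132).

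Tnip1 encodes ABIN1, a partner of the ubiquitin-editing enzyme A20. Its levels in females were 8.57, 9.69, 9.10, 8.91 and 7.85 CPM in young, 11.8, 12.9, 11.3 and 12.1 in old vehicle and 13.4, 10.6, 14.0, 13.3 and 12.3 in old HDM201 mice. Its levels in males were 6.83, 10.8, 7.41 and 7.47 CPM in young, 10.0, 9.74, 10.5 and 10.99 in old vehicle and 14.2, 9.26, 12.9, 14.2 and 12.1 in old HDM201 mice. The young females lay below all old females, and in males 1 young mouse reached the old range. It rose with age in females (log2 fold change 0.47, SE 0.097, edgeR FDR 0.00323), differed by 0.36 (SE 0.15, edgeR FDR 0.198) in males and did not change with HDM201 beyond the threshold in females (log2 fold change 0.06, SE 0.092, edgeR FDR 0.734) or males (log2 fold change 0.29, SE 0.13, edgeR FDR 0.415). HDM201-treated mice were higher than young ones by 0.53 (SE 0.099, edgeR FDR 0.00193) in females and 0.64 (SE 0.17, edgeR FDR 0.0229) in males, the latter lost without old HDM201 male 1 or young vehicle male 1, 3 or 4 (edgeR FDR 0.0100 to 0.0649 as single mice were dropped).

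Bcl3, a nuclear IkB protein that binds p50 and p52 dimers, had a CPM of 27.2, 26.3, 33.8, 24.0 and 30.8 in young, 37.1, 46.6, 34.8 and 51.9 in old vehicle and 47.3, 28.6, 27.2, 30.9 and 25.9 in old HDM201 females. The male levels were 31.6, 41.6, 25.7 and 35.3 in young, 24.5, 55.1, 39.2 and 36.1 in old vehicle and 38.3, 37.6, 35.7, 35.0 and 51.3 in old HDM201 mice. In females all old vehicle mice lay above all young ones, 4 of the 5 HDM201-treated mice lay below all old vehicle ones, and the groups of males overlapped. Bcl3 rose with age in females (log2 fold change 0.61, SE 0.13, edgeR FDR 0.00408) and differed by 0.22 (SE 0.22, edgeR FDR 0.615) in males. For HDM201 against vehicle the value was -0.44 (SE 0.18, edgeR FDR 0.168) in females, and HDM201-treated females differed from young ones by 0.17 (SE 0.15, edgeR FDR 0.458).

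Nfkbiz, which encodes the nuclear IkBζ, rose with age in females (log2 fold change 0.62, SE 0.15, edgeR FDR 0.00707) and differed by 0.21 (SE 0.14, edgeR FDR 0.428) in males, and it was higher in HDM201-treated than in young females (estimate of log2 fold change 0.50, SE 0.12, edgeR FDR 0.0106). Nfkbia, the highest member, did not pass in any comparison, and with age in females it had a log2 fold change -0.09, SE 0.14, edgeR FDR 0.657. Its CPM averaged 64.3 ± 7.01 (SD, n = 5) among young females, 59.4 ± 14.2 (SD, n = 4) among those given vehicle when old and 58.3 ± 4.73 (SD, n = 5) among those given HDM201. Tnfaip3, which encodes A20, differed with age by 0.36 (SE 0.23, edgeR FDR 0.239) in females and 0.43 (SE 0.27, edgeR FDR 0.386) in males, and was higher in HDM201-treated than in young males (log2 fold change 0.99, SE 0.24, edgeR FDR 0.0177). That last call was lost with the replicate block and in every limma fit on FPKM.

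Of the 5 survival and stress genes, 4 were higher with age in females and 3 in males, and HDM201-treated mice were higher than young ones at 2 of 4 in females and 3 of 5 in males. Bcl2a1b encodes A1, an antiapoptotic BCL2 relative of white blood cells. It has near-identical copies in the genome, so that its reads may be shared among them. Its CPM was 0.315, 0.359, 0.104, 0.517 and 0.0490 in young, 1.53, 1.43, 1.44 and 1.45 in old vehicle and 0.783, 0.383, 1.21, 0.846 and 1.27 in old HDM201 females. In males its CPM was 0.0604, 0.171, 0.382 and 0.181 in young, 1.77, 1.16, 1.38 and 0.902 in old vehicle and 2.67, 1.07, 1.27, 1.65 and 2.64 in old HDM201 mice. The 4 old vehicle females lay close together, above all young and above all HDM201-treated females, and the old males lay above all young males. It rose with age in females (log2 fold change 2.47, SE 0.41, edgeR FDR 8.69e-04) and in males (log2 fold change 2.67, SE 0.44, edgeR FDR 0.0136, lost without young vehicle male 4, with an edgeR FDR 0.0166 to 0.0513 as single mice were dropped). In both sexes Bcl2a1b entered the test with age only through the old mice, so these calls are not support for the counts. With HDM201 the difference was -0.70 (SE 0.28, edgeR FDR 0.163) in females and 0.52 (SE 0.34, edgeR FDR 0.550) in males, with an interaction of -1.22 (SE 0.45, edgeR FDR 0.158). Compared with young males, HDM201-treated males were higher (log2 fold change 3.19, SE 0.47, edgeR FDR 0.00238), while in females it did not pass the filter in that comparison.

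Tnfaip8, a TNF-induced survival gene, had a CPM of 2.14, 2.51, 2.65, 2.18 and 2.30 in young, 3.48, 4.45, 4.15 and 3.42 in old vehicle and 3.44, 2.02, 2.79, 2.89 and 3.19 in old HDM201 females. Male mice had 1.15, 1.49, 1.36 and 1.58 in young, 3.08, 1.74, 3.73 and 2.65 in old vehicle and 4.45, 3.26, 2.42, 3.89 and 5.01 in old HDM201 livers. Old and young vehicle mice with counts did not overlap in either sex, and the HDM201-treated females overlapped with both. The rise with age was called in females (log2 fold change 0.74, SE 0.16, edgeR FDR 0.00377) and not in males (log2 fold change 1.01, SE 0.27, edgeR FDR 0.0641). With HDM201 the values were -0.45 (SE 0.17, edgeR FDR 0.141) in females and 0.45 (SE 0.27, edgeR FDR 0.504) in males, with an interaction of -0.90 (SE 0.32, edgeR FDR 0.142). HDM201-treated males were higher than young ones (estimate of log2 fold change 1.46, SE 0.24, edgeR FDR 0.00358), a call lost in all limma fits on FPKM.

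Ier3, a stress-induced immediate early gene, had a CPM of 0.946, 1.08, 0.728, 0.575 and 0.981 in young, 1.37, 1.43, 1.44 and 1.78 in old vehicle and 3.55, 1.53, 1.46, 2.00 and 1.69 in old HDM201 females. It stood at 0.725, 0.857, 0.600 and 0.633 in young, 2.14, 1.51, 2.41 and 1.06 in old vehicle and 0.946, 1.07, 1.33, 3.47 and 1.60 in old HDM201 males. In both sexes all old mice with counts lay above all young mice with counts. It rose with age in females (log2 fold change 0.82, SE 0.24, edgeR FDR 0.0194, lost without old vehicle female 4, with an edgeR FDR 0.0182 to 0.0666 as single mice were dropped) and narrowly in males (log2 fold change 1.35, SE 0.32, edgeR FDR 0.0474, kept only without old vehicle male 5, with an edgeR FDR 0.0251 to 0.142 as single mice were dropped). With HDM201 it differed by 0.42 (SE 0.28, edgeR FDR 0.410) in females and -0.07 (SE 0.41, edgeR FDR 0.958) in males, and HDM201-treated females were higher than young ones (estimate of log2 fold change 1.23, SE 0.29, edgeR FDR 0.00727). The same difference in males, 1.27 (SE 0.41, edgeR FDR 0.0497), was kept only without old HDM201 male 1 or 2 (edgeR FDR 0.0397 to 0.115 as single mice were dropped).

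Gadd45b, a stress-induced regulator of growth arrest, rose with age in females (log2 fold change 1.10, SE 0.29, edgeR FDR 0.0124), from a mean CPM of 2.80 ± 1.22 (SD, n = 5) to 5.95 ± 1.16 (SD, n = 4) without overlap, and was higher in HDM201-treated than in young females (estimate of log2 fold change 0.95, SE 0.27, edgeR FDR 0.0195). In males it differed with age by 0.64 (SE 0.42, edgeR FDR 0.406). Birc3, which encodes the ubiquitin ligase cIAP2, rose with age in males (log2 fold change 0.56, SE 0.099, edgeR FDR 0.0193, lost without young vehicle male 4 or old vehicle male 4, with an edgeR FDR 0.0150 to 0.0689 as single mice were dropped), from 14.4 ± 0.880 (SD, n = 4) to 21.0 ± 1.99 (SD, n = 4) CPM without overlap, and had a log2 fold change 0.01, SE 0.11, edgeR FDR 0.968 in females. Its interaction of sex and age was -0.54 (SE 0.15, edgeR FDR 0.0574) with edgeR, and passed with DESeq2 (FDR 0.0237).

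Of the 4 adhesion and activation genes, 3 were higher with age in females and 1 in males, and HDM201-treated mice were higher than young ones at 2 in females and all 4 in males. The adhesion molecule Icam1, which binds leukocyte integrins, had the smallest FDR of all members with age in females. Its CPM was 8.32, 6.61, 8.84, 8.85 and 8.24 in young, 16.97, 24.3, 15.7 and 23.7 in old vehicle and 22.6, 11.8, 18.9, 19.5 and 15.6 in old HDM201 females. For males it was 4.83, 8.80, 11.4 and 10.1 in young, 17.5, 16.4, 21.9 and 12.6 in old vehicle and 21.4, 15.3, 18.8, 24.5 and 32.2 in old HDM201 mice. In both sexes every old mouse with counts lay above every young mouse with counts, whatever the treatment. The rise with age was called in females (log2 fold change 1.33, SE 0.15, edgeR FDR 8.72e-05), and in males the difference was 0.97 (SE 0.25, edgeR FDR 0.0605). Between HDM201 and vehicle it differed by -0.21 (SE 0.18, edgeR FDR 0.547) in females and 0.40 (SE 0.22, edgeR FDR 0.472) in males, and HDM201-treated mice were higher than young ones by 1.12 (SE 0.15, edgeR FDR 2.58e-04) in females and 1.36 (SE 0.26, edgeR FDR 0.00563) in males.

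Tnfaip2, a TNF-induced gene of endothelial and myeloid cells, had a CPM of 14.8, 9.94, 16.6, 18.1 and 15.3 in young, 42.7, 52.9, 27.2 and 51.1 in old vehicle and 36.2, 46.9, 29.6, 40.4 and 24.0 in old HDM201 females. Livers of males had 11.8, 28.6, 19.5 and 16.2 in young, 26.5, 42.7, 39.7 and 25.6 in old vehicle and 52.8, 54.4, 41.5, 38.4 and 46.9 in old HDM201 mice. All old females lay above all young females, and in males old vehicle and young mice overlapped while the HDM201-treated mice lay above the young. Tnfaip2 rose with age in females (log2 fold change 1.57, SE 0.19, edgeR FDR 1.60e-04) and differed by 0.84 (SE 0.26, edgeR FDR 0.0987) in males. With HDM201 it differed by -0.32 (SE 0.21, edgeR FDR 0.402) in females and 0.48 (SE 0.17, edgeR FDR 0.326) in males. Compared with young mice it was higher after HDM201 in females (log2 fold change 1.24, SE 0.18, edgeR FDR 3.71e-04) and males (log2 fold change 1.31, SE 0.21, edgeR FDR 0.00321).

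Vcam1, an adhesion molecule for lymphocytes and monocytes, had a CPM of 15.6, 19.1, 9.93, 11.2 and 17.9 in young, 17.1, 18.04, 24.2 and 19.1 in old vehicle and 15.6, 11.05, 19.6, 15.8 and 23.4 in old HDM201 females. Its male levels were 8.40, 9.94, 8.83 and 12.1 in young, 28.5, 9.27, 20.5 and 10.2 in old vehicle and 15.5, 16.1, 13.7, 18.9 and 16.3 in old HDM201 mice. The groups compared here overlapped except that all HDM201-treated males lay above all young males, and the old vehicle males spread most. It passed the test with edgeR in HDM201-treated against young males (log2 fold change 0.72, SE 0.13, edgeR FDR 0.00504), and with age it differed by 0.43 (SE 0.18, edgeR FDR 0.0895) in females and 0.81 (SE 0.33, edgeR FDR 0.185) in males.

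Cd83, a marker of activated dendritic and B cells, had a CPM of 1.89, 0.820, 1.04, 2.76 and 1.08 in young, 2.79, 2.27, 3.93 and 3.33 in old vehicle and 1.72, 1.64, 1.79, 1.07 and 2.16 in old HDM201 females. In males Cd83 had 0.302, 0.628, 0.436 and 0.543 in young, 1.51, 1.97, 4.19 and 1.17 in old vehicle and 2.67, 1.18, 1.62, 2.08 and 1.10 in old HDM201 mice. All 5 HDM201-treated females lay below all 4 old vehicle females, and 1 young female reached into the old vehicle range. The rise with age was called in females (log2 fold change 1.06, SE 0.32, edgeR FDR 0.0237, lost without old vehicle female 3 or 4 or young vehicle female 3 or 5, with an edgeR FDR 0.00412 to 0.0618 as single mice were dropped) and in males (log2 fold change 2.20, SE 0.45, edgeR FDR 0.0306, kept only without old vehicle male 2 or 5, with an edgeR FDR 0.0218 to 0.0837 as single mice were dropped). The fall with HDM201 in females (log2 fold change -0.89, SE 0.22, edgeR FDR 0.0417) was kept only without old HDM201 female 5 (edgeR FDR 0.0425 to 0.110 as single mice were dropped). In males the difference with HDM201 was -0.34 (SE 0.40, edgeR FDR 0.758), and the sexes were not shown to differ (log2 fold change -0.55, SE 0.47, edgeR FDR 0.571 for the interaction). HDM201-treated males were higher than young males (log2 fold change 1.85, SE 0.35, edgeR FDR 0.00585).

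**Figure D4:**
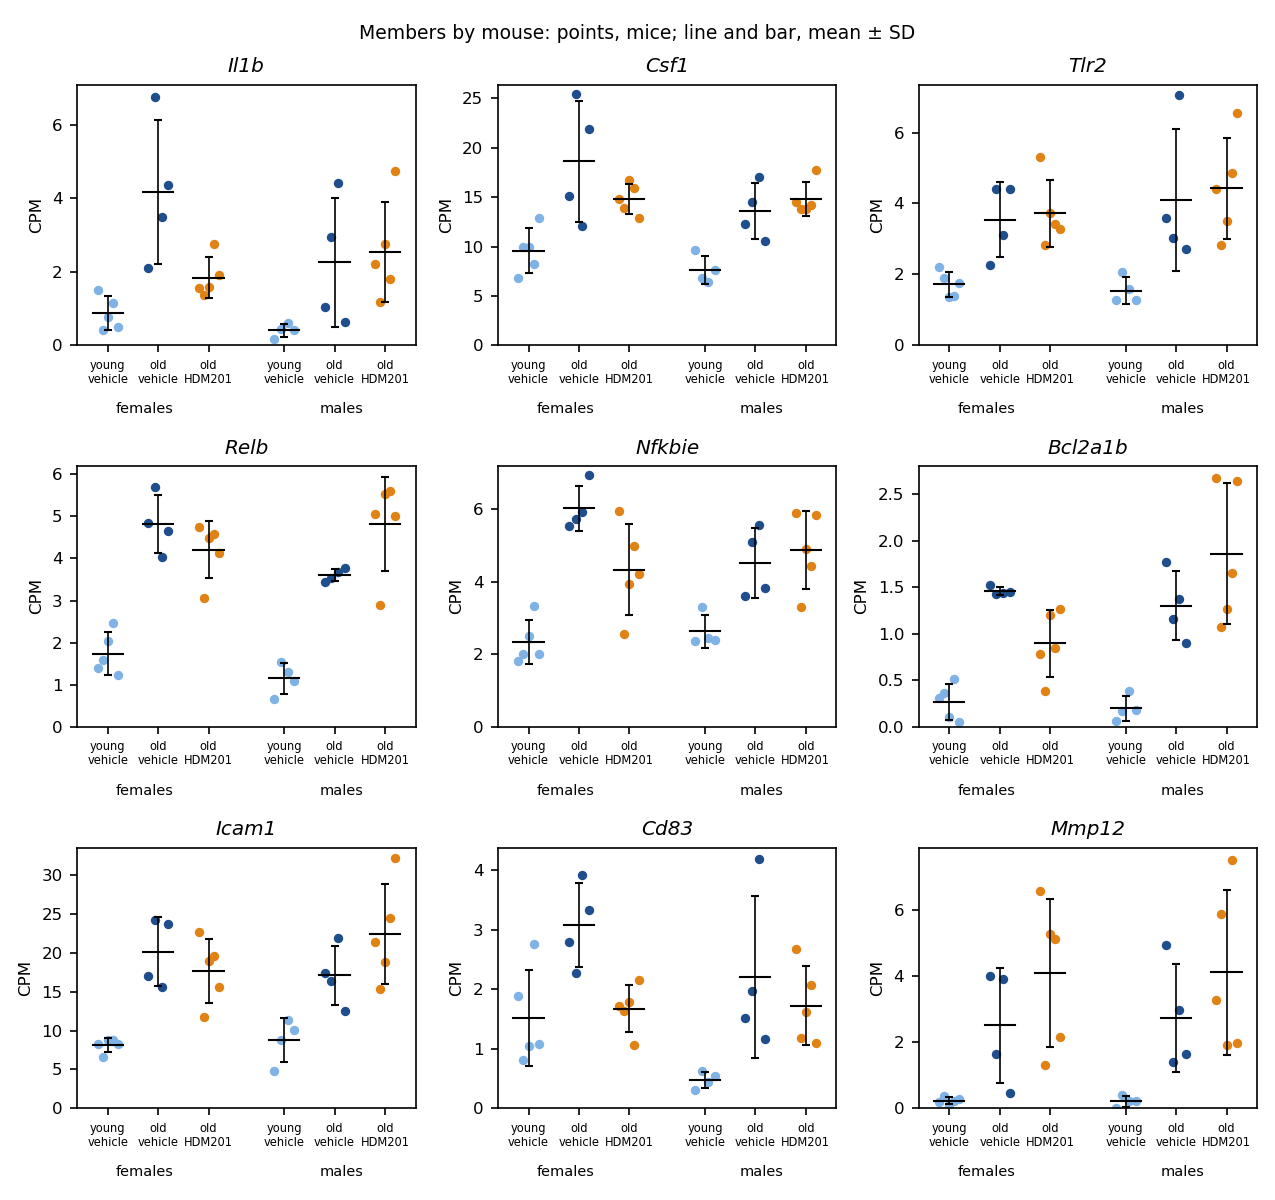
CPM of 9 members in each mouse (points) by group, with the mean and SD as a line and bar, females on the left and males on the right of each panel. Old vehicle and young mice with counts do not overlap in either sex for Il1b, Tlr2, Relb, Nfkbie, Bcl2a1b, Icam1 and Mmp12, and Cd83 of HDM201-treated females lies below that of old vehicle females.

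Of the 4 secreted protease and prostaglandin synthesis genes few could be tested. Mmp12, the elastase of macrophages, had the largest fold difference of the members apart from Tnf. Its CPM was 0.189, 0.359, 0.104, 0.230 and 0.294 in young, 4.00, 1.65, 3.93 and 0.469 in old vehicle and 6.58, 1.31, 5.28, 5.12 and 2.16 in old HDM201 females. Among males the values were 0, 0.400, 0.218 and 0.226 in young, 4.95, 1.39, 2.99 and 1.65 in old vehicle and 3.28, 5.89, 1.90, 7.52 and 1.98 in old HDM201 mice. In both sexes every old mouse lay above every young mouse, and the old mice themselves varied widely. It rose with age in males (log2 fold change 3.66, SE 0.62, edgeR FDR 0.0152, lost without young vehicle male 3 or 4, with an edgeR FDR 0.0174 to 0.0554 as single mice were dropped). In females that comparison held 194 reads in 4 old vehicle mice and 22 in 5 young ones, a ratio of 10.1 (exact 95% interval 6.47 to 16.5, counting error only), but old vehicle female 4 had 10 reads and the gene did not pass the filter. With HDM201 it differed by 0.71 (SE 0.54, edgeR FDR 0.478) in females and 0.59 (SE 0.49, edgeR FDR 0.646) in males, and HDM201-treated mice were higher than young ones in females (log2 fold change 4.07, SE 0.49, edgeR FDR 1.03e-04) and males (log2 fold change 4.24, SE 0.64, edgeR FDR 0.00257).

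Plau, which encodes the urokinase that Plaur binds, had a CPM of 1.20, 1.64, 1.98, 1.26 and 1.91 in young, 1.05, 1.78, 1.22 and 2.02 in old vehicle and 2.40, 1.15, 1.87, 2.58 and 2.54 in old HDM201 females. Plau in males measured 0.846, 1.43, 0.818 and 1.99 in young, 2.55, 1.68, 1.95 and 0.849 in old vehicle and 2.06, 2.57, 2.83, 2.99 and 2.20 in old HDM201 mice. The female groups overlapped, and all HDM201-treated males lay above all young males. That difference was called (log2 fold change 0.99, SE 0.29, edgeR FDR 0.0346, kept only without old HDM201 male 1 or 5 or young vehicle male 4, with an edgeR FDR 0.0170 to 0.0885 as single mice were dropped), and with age Plau differed by -0.05 (SE 0.26, edgeR FDR 0.907) in females and 0.46 (SE 0.39, edgeR FDR 0.536) in males.

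Mmp13, a collagenase, and Ptgs2 had few reads. Mmp13 held 4, 3, 5, 0 and 5 reads in young, 28, 1, 2 and 1 in old vehicle and 12, 8, 20, 11 and 12 in old HDM201 females, and 1, 1, 0 and 3 in young, 8, 5, 5 and 4 in old vehicle and 8, 8, 8, 21 and 6 in old HDM201 males. In old vehicle females 28 of 32 reads came from 1 mouse, and all HDM201-treated mice lay above all young mice in both sexes. It passed the filter among groups of 1 sex only for HDM201 against vehicle in females (log2 fold change 0.53, SE 0.76, edgeR FDR 0.731). Ptgs2 ranged from 0 to 2 reads per mouse in females and from 0 to 6 in males and could not be tested in any comparison.

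Other genes of the pathway, from lists set by function with earlier results of these data known, are given next. Beside the counts of these lists, the share of all genes called with age was 16.8% higher and 15% lower in females and 2.76% and 0.931% in males. For HDM201 against vehicle it was 2.35% and 2.9% in females and 0.00709% in either direction in males. For HDM201-treated against young mice it was 14.2% and 12.6% in females and 11.6% and 7.56% in males. The interaction of sex and age called 3.92%. Of 36 pathway components (receptors, adaptors, kinases and further IkB genes), 13 were higher and 1 lower in old vehicle than in young females, among them Irak3 (log2 fold change 1.81, SE 0.38, edgeR FDR 0.00333), Cd14 (1.52, SE 0.24, edgeR FDR 7.48e-04), Nfkbid (1.42, SE 0.34, edgeR FDR 0.00681) and Tnfrsf11a, which encodes RANK (1.23, SE 0.35, edgeR FDR 0.0192). In males none of 35 tested was called with edgeR, 10 had an unadjusted p under 0.05, and DESeq2 called 2 higher and 1 lower. With HDM201, 1 of 36 was called in females, Tnfrsf11a, which was lower (-0.95, SE 0.24, edgeR FDR 0.0451), a count near the share of all genes. None of 36 was called in males, where 6 had an unadjusted p under 0.05 and DESeq2 called none. HDM201-treated mice differed from young ones at 9 higher and 2 lower of 35 in females, with Cd14, Irak3 and Map3k14 higher and Il1rap lower, and at 8 higher and 7 lower of 36 in males. The male genes with the largest differences were Nfkbid (2.08, SE 0.37, edgeR FDR 0.00467), Cd14 (1.75, SE 0.20, edgeR FDR 7.70e-04), Nlrp3 (1.66, SE 0.39, edgeR FDR 0.0142) and Pycard (1.27, SE 0.28, edgeR FDR 0.0110). The interaction of sex and age called Ltbr (0.47) higher and Il1rap (-0.91) lower in females relative to males, with edgeR.

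Of other NF-kB induced genes, 7 of 21 tested were higher and 3 lower in old vehicle than in young females. Over all genes these shares were 16.8% and 15%, so that the count of lower genes is near the share. Lcn2, an iron-sequestering acute phase protein, rose by 1.50 (SE 0.17, edgeR FDR 8.72e-05) and Dusp2 by 1.11 (SE 0.38, edgeR FDR 0.0405), while Pfkfb3, an enzyme of glycolytic control, fell by 1.65 (SE 0.35, edgeR FDR 0.00418) and Slc7a2 by 1.06 (SE 0.23, edgeR FDR 0.00489). In old males 1 of 21 was called, Marcksl1 (0.81, SE 0.16, edgeR FDR 0.0259). None was called with HDM201 in either sex with edgeR, with 4 of 21 in females and 7 of 22 in males at an unadjusted p under 0.05 and 2 and 1 called lower by DESeq2. Relative to young mice, 6 were higher and 4 lower of 20 in HDM201-treated females, led by Lcn2 (1.78) and Pfkfb3 (-1.48) and followed by Slc7a2 (-0.86) and Btg2 (0.83). In males 8 were higher and 4 lower of 22, led by Nos2 (3.29, SE 0.77, edgeR FDR 0.0142), with Marcksl1 (1.29), Btg2 (1.22) and Slc7a2 (-1.16) next. Sex and age interacted at Lcn2 (3.66, SE 0.92, edgeR FDR 0.0359) and Pfkfb3 (-2.42, SE 0.61, edgeR FDR 0.0360).

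Of other SASP factors, 10 of 26 tested were higher and 1 lower in old vehicle than in young females, where 16.8% and 15% of all genes were. Among them were Mmp9, a gelatinase (1.71, SE 0.36, edgeR FDR 0.00367), Serpine2 (1.48, SE 0.26, edgeR FDR 0.00132) and Gdf15, a stress-induced cytokine (1.39, SE 0.33, edgeR FDR 0.00645). In males 2 of 24 were higher, Tgfb1 (0.87, SE 0.18, edgeR FDR 0.0294) and Timp2 (0.83, SE 0.15, edgeR FDR 0.0213). With HDM201, 1 of 27 was lower in females, Gmfg (-0.57, SE 0.15, edgeR FDR 0.0455), a count near the 2.9% of all genes called lower. None of 28 was called in males with edgeR, where 5 had an unadjusted p under 0.05 and DESeq2 called 1 higher and 1 lower. Compared with young mice, 13 were higher and 1 lower of 26 in HDM201-treated females, among them Gdf15 (2.04), Mmp9 (1.37) and Il7 (1.29). In HDM201-treated males 9 of 27 were higher, led by Plat (2.16), Mmp9 (2.00), Mmp2 (1.89) and Inhba (1.59). Sex and age interacted at Mmp14 (0.93, SE 0.21, edgeR FDR 0.0233), 1 of 27 tested, which is near the 3.92% of all genes called.

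Markers of immune and other liver cells moved in the same comparisons. The summed level of 8 macrophage and Kupffer cell markers, led by Clec4f and Cd5l, was 204 to 306 CPM in young, 310 to 623 in old vehicle and 186 to 311 in old HDM201 females. Its ranges in males were 89.2 to 201 in young, 126 to 404 in old vehicle and 175 to 474 in old HDM201 mice. In females 7 of the 8 markers rose with age and 7 fell with HDM201, and in males 1 was higher with age and none was called with HDM201, where none had an unadjusted p under 0.05 and DESeq2 called none. None of the 8 markers was at 0 in any group.

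**Figure D5:**
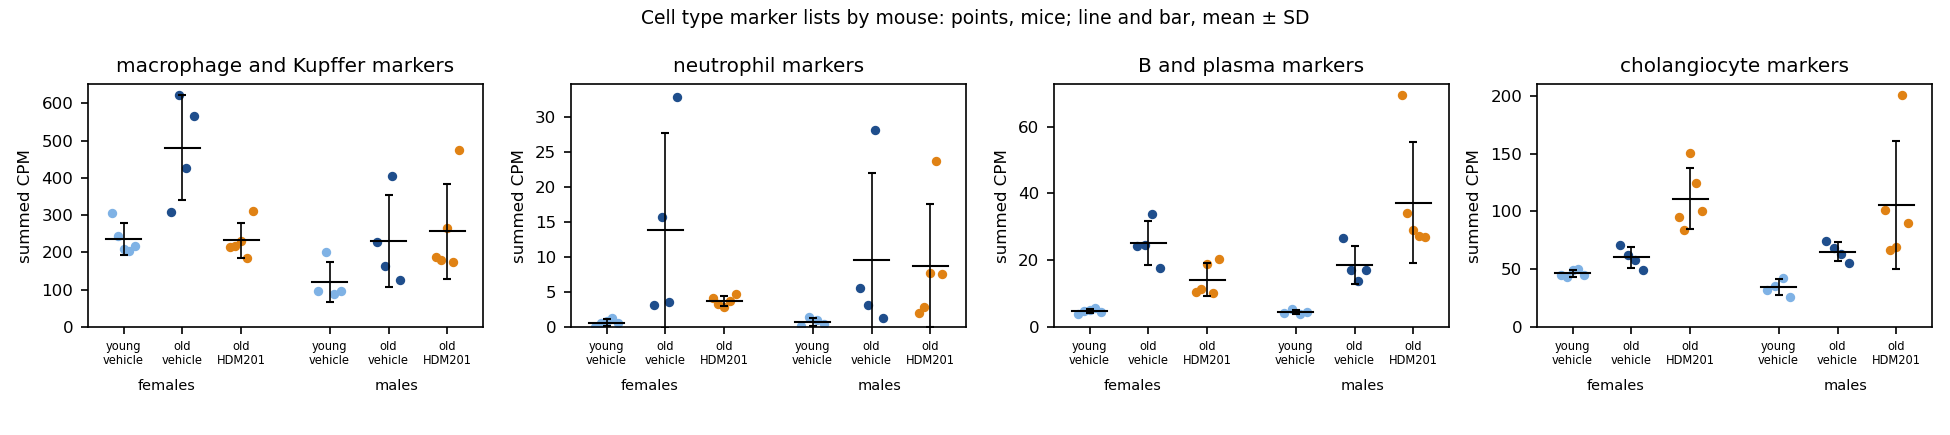
Summed CPM of 4 lists of cell type markers in each mouse (points) by group, with the mean and SD as a line and bar (bars that would pass below 0 end at the axis). In females the macrophage and Kupffer markers are highest in old vehicle mice (310 to 623 CPM), and cholangiocyte markers, mostly Spp1, are highest with HDM201 (84.0 to 150).

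The 6 neutrophil markers, led by S100a9 and S100a8, summed to 0 to 1.26 CPM in young, 3.11 to 32.8 in old vehicle and 2.87 to 4.70 in old HDM201 females, with Ly6g at 0 in the young groups of both sexes. In males they summed to 0.121 to 1.43 in young, 1.33 to 28.1 in old vehicle and 1.95 to 23.7 in old HDM201 mice. The 6 B and plasma cell markers, led by Jchain and Cd79a, summed to 3.91 to 5.52 CPM in young, 17.7 to 33.7 in old vehicle and 10.1 to 20.2 in old HDM201 females. Their ranges in males were 3.87 to 5.43, 13.8 to 26.6 and 26.8 to 69.3, so that young and old mice with counts did not overlap in either sex. With age 5 of 6 of them were higher in females and 4 of 5 tested in males, and with HDM201 1 was lower in females, Cd79b. The shares of all genes in these 3 calls were 16.8%, 2.76% and 2.9%.

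The 5 cholangiocyte markers, led by Spp1 and Sox9, summed to 42.8 to 49.8 CPM in young, 49.6 to 71.2 in old vehicle and 84.0 to 150 in old HDM201 females, and to 26.1 to 42.7, 54.9 to 74.2 and 66.6 to 201 in males. This sum is mostly Spp1, with a mean of 91.9 CPM in HDM201-treated females. Sox9, Epcam, Krt19 and Krt7 also had their highest female mean with HDM201. The 7 T and NK cell markers, led by Nkg7 and Cd8a, summed to 2.39 to 4.10, 4.72 to 5.22 and 2.99 to 5.90 CPM in females and 0.967 to 2.45, 2.84 to 9.07 and 5.67 to 23.8 in males, in the same order of groups. The 6 stellate cell markers, led by Dcn and Reln, summed to 201 to 289, 220 to 330 and 233 to 274 CPM in females and 143 to 171, 172 to 281 and 202 to 324 in males. The 6 monocyte markers, whose sum is mostly Fn1 with Plac8 next, were at 1495 to 2262, 1850 to 2140 and 2085 to 2395 CPM in females and 1402 to 2237, 1336 to 1677 and 1415 to 2063 in males. Fn1 had its highest female mean with HDM201 (2275 CPM). Plac8, Ccr2, Itgam, Ly6c2 and Chil3 had theirs in old vehicle mice (7.79, 2.81, 1.83, 1.23 and 1.19), so the sum does not show them. Of 5 tested in females, 3 were higher with age, where 16.8% of all genes were. Among these, Itgam and Ly6c2 had young means of only 0.322 and 0.400 CPM, so their calls are weak support. With HDM201 edgeR called none, all 5 had an unadjusted p under 0.05, and DESeq2 called 1 higher and 1 lower. Dendritic cell markers (6, led by Zbtb46 and Clec9a) summed to 8.80 to 17.5 CPM and endothelial markers (6, led by Stab2 and Clec4g) to 96.5 to 198 CPM over all mice. The part of these lists in the values of the members was not tested.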

How the data were processed

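Whole-liver poly(A) RNA of 29 mice was sequenced. Per the labels and the methods, STAR was used by the authors to place the reads on mm10, HTSeq to make raw counts per gene, and Cufflinks to compute FPKM for display. Versions and the strand setting of the counting are not given in the sources used here, so reads of a gene and of an overlapping antisense gene cannot be told apart. The deposited counts cover 27 mice and the deposited FPKM values 29, with no column of other samples. The 2 mice without counts entered only the FPKM alternatives, although the design had assumed counts for them.

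Genes were tested on the deposited counts with edgeR 4.0.16 in R 4.3.3, using the quasi-likelihood F test, TMM normalisation and the filterByExpr limits of 10 (count) and 15 (total). Each of the 6 comparisons of groups was fitted on its own mice and each of the 2 interactions (females minus males) on its 4 groups. SE is the log2 fold change divided by the square root of F. A gene was called at a Benjamini-Hochberg FDR under 0.05 over all genes tested. CPM uses TMM factors over the 27 mice, and the level per length divides it by kb of exons in GENCODE vM21.

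Alternatives were RLE size factors, DESeq2 1.42.0, no count filter, a joint fit of all 6 groups, a block for the replicate number, leaving out each mouse, and limma 3.58.1 on log2(FPKM + 1) where one group's mean FPKM reached 0.1, on log2(FPKM + 0.1) and without the filter. A limma fit on the mice with counts only was added after seeing the data. The scripts were tested on simulated counts. Replicates were separate mice by the labels, and no 2 libraries of a group agreed within sampling noise. Depth was 16485900 to 23570458 counts per mouse, and intervals of ratios cover counting error only.

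The members and gene lists were chosen with earlier results of these data known. Every member was named. Those given in every mouse were, in each role, up to 3 called members with the smallest FDR. Cd83, called with HDM201, and Mmp13 and Tnf reads were added after their values were seen. From the wider lists up to 4 called genes per comparison with the largest fold change were named, and of each marker list the 2 genes with the highest mean CPM. The values of 1 gene of these lists are not reported here.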

Additional observations from a re-analysis of the deposited data

Results flagged for a closer look

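In groups of 4 or 5 mice, the highest or lowest mouse of a member was marked where its gap to the nearest mouse took up more of the group's range than Dixon's test allows at 95%. This marks about 1 in 20 such sets by chance, and 19 of 193 sets were marked. All values are CPM.

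Among HDM201-treated males, male 5 stood high for Csf1 (17.8, next 14.5), Nfkbiz (20.7, next 13.6) and Bcl3 (51.3, next 38.3). Male 4 stood high for Ier3 (3.47, next 1.60) and Mmp13 (1.12, next 0.461), and male 2 low for Relb (2.89, next 5.01). Among HDM201-treated females, female 1 stood high for Bcl3 (47.3, next 30.9) and Ier3 (3.55, next 2.00), and female 2 low for Nfkbiz (11.2, next 15.03).

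Of the old vehicle females, female 3 stood high for Tnfrsf1b (48.8, next 39.8) and Ripk2 (6.36, next 4.58) and low for Tnfaip3 (4.04, next 4.95). Female 4 stood high for Ier3 (1.78, next 1.44), and female 1 for Mmp13 (1.48, next 0.111, from 28 reads). Old vehicle male 5 stood low for Tnfrsf1b (31.8, next 39.1).

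Of the young mice, vehicle female 5 stood high for Plaur (0.834, next 0.359, from 17 reads) and female 2 low for Icam1 (6.61, next 8.24). Young vehicle male 2 stood high for Nfkbie (3.31, next 2.45) and Tnip1 (10.8, next 7.47).

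The change of Tnfrsf1b with age differed between the sexes by the interaction test, by -0.64 on the log2 scale (females minus males). It was 1 of 32 members called, where 3.92% of all genes were, so that the count is near the share. The call was lost in 5 of 17 fits that leave out a mouse and in all 4 limma fits on FPKM.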

How the results depend on the processing

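With each alternative the number of members called in old against young vehicle females stayed between 17 and 22 (main count 21, 19 to 21 with each mouse left out), and in HDM201-treated against young females between 15 and 18 (main 15, 13 to 17 with each mouse left out). No called member changed direction under any alternative. In HDM201-treated against vehicle males edgeR called 0 members under each alternative and with each mouse left out.

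In old against young vehicle males the count of 9 became 17 with DESeq2, 14 without the count filter and 19 with all 6 groups in one fit, and 1 to 12 with each mouse left out. It was 0 with limma on log2(FPKM + 1), filtered or not, 1 on log2(FPKM + 0.1) and 2 with the mice with counts only, an alternative chosen after seeing the data. In HDM201-treated against vehicle females the count of 2 became 0 with all 6 groups in one fit and in all 3 FPKM fits, 3 with DESeq2 or without the filter, and 0 to 2 with each mouse left out. In HDM201-treated against young males 24 became 7, 7 and 4 in the FPKM fits (pseudocount 1, pseudocount 0.1, no filter) and 19 with the mice with counts only, and was 20 to 24 with each mouse left out. The interaction of sex and treatment called 1 with DESeq2 and 0 to 1 with each mouse left out. The interaction of sex and age called 2 with DESeq2 and with all 6 groups in one fit, 0 in the 4 FPKM fits and 0 to 3 with each mouse left out. The cause of these differences was not tested.

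The counts over all genes also moved. They went from 507 to 1318 with DESeq2, 968 without the filter, 2007 with all 6 groups and 25 to 149 in the FPKM fits for old against young males. They went from 758 to 1330 with DESeq2, 208 with all 6 groups and 7 to 60 in the FPKM fits for HDM201 in females, and from 1 to 162, 22 and 6 with DESeq2, no filter and all 6 groups for HDM201 in males. For HDM201-treated against young males 2690 became 4267 with all 6 groups and 405 to 1575 in the FPKM fits. The interactions went from 577 to 1187 (DESeq2) and 146 to 544 (FPKM) for age, and from 16 to 643 (DESeq2), 122 (no filter), 11 (all 6 groups) and 0 (FPKM) for treatment. The median log2 fold change of all genes was highest on log2(FPKM + 0.1), at 0.1863 for HDM201-treated against young males, where the count fit gave -0.0137, so changes on that scale are relative to a shifted centre.

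Mice that share a replicate number did not deviate together. The correlation of their deviations from the group means ran from -0.305 to 0.227, the labels give the numbers no shared litter or day, and the numbers pair nothing. With the replicate number as a block the members called were 19, 0, 0, 0, 15 and 14 in the comparisons with age (females, males), with HDM201 (females, males) and of HDM201-treated with young mice (females, males), and 0 and 1 in the interactions of sex with treatment and with age. The genes called over the whole table went from 507 to 29 with age in males, from 758 to 366 with HDM201 in females, from 2690 to 1316 for HDM201-treated against young males, and from 577 to 183 and 16 to 0 in the interactions with age and treatment.

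Low reads limit Tnf, Il6, Ptgs2, Mmp12 and Mmp13, and with 4 or 5 mice a group a call that a single mouse decides is weak. Young and old mice differ in substrain, and the sexes differ in the age of the old mice.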

Other observations

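The 2 mice with FPKM and no counts were compared with the other mice of their label groups as values only. Old vehicle male 1 lay above the other 4 old vehicle males for 35 of the 36 members and within their range for 1. Over all 21401 genes with a value it lay above them for 57.0% and below for 8.81%. Its FPKM of Tnfaip8 was 29.2 (highest of the others 2.08), of Bcl2a1b 17.4 (2.69), of Relb 9.35 (1.72) and of Traf1 6.06 (1.11). Its summed FPKM of B and plasma cell markers was 276 (the others 9.34 to 18.6), of macrophage markers 450 (58.6 to 191), of T and NK cell markers 26.5 (3.09 to 7.96) and of cholangiocyte markers 226 (32.3 to 49.5). Its hepatocyte markers summed to 39901 (50053 to 74362).

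Young vehicle male 5 lay above the other 4 young vehicle males for 25 members, below them for 3 (Il18, Ripk2 and Nfkbia) and within their range for 8. Over 20010 genes it lay above for 25.5% and below for 30.1%. Its FPKM exceeded all 4 old vehicle males with counts for Tlr2 (3.42, highest of them 2.04), Csf1 (5.52, 4.29), Icam1 (12.4, 9.31), Relb (1.90, 1.72), Nfkbie (2.59, 1.92), Tnfrsf1b (10.1, 9.45), Tnfaip8 (2.74, 2.08) and Ier3 (7.81, 2.08). For Il1b it lay within their range, and for Tnf, Birc3, Bcl2a1b and Mmp12 below them. At Il1b and the genes it exceeded, statements that old males lay above young males do not extend to this mouse. Its neutrophil markers summed to 563 FPKM (the others 0.441 to 4.82), its macrophage markers to 214 (36.0 to 87.1) and its monocyte markers to 578 (232 to 318). With limma on log2(FPKM + 1), old against young males gave 0 members called with both mice and 2 without them. HDM201-treated against young males gave 7 with young vehicle male 5 and 19 without it, and HDM201-treated against old vehicle males 0 with and without old vehicle male 1. The part of the cell markers in these values was not tested.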
